A study of Mus musculus with 10 samples.

Results

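The genes described here are the oligoadenylate synthetase family members Oas1a, Oas2, Oas3, Oasl1 and Oasl2 with the RNA editing gene Adar, which were chosen by name, 6 genes in all. They were measured in brain endothelial cells (BECs), in 5 libraries from APP/PS1 and 5 from control mice, all females aged 1 year. The table of log2 CPM (counts scaled to library size, on a log2 scale) was joined by Ensembl identifier to the symbols of GENCODE M21, the mouse annotation of GRCm38, which is the assembly also called mm10. In this way 5 of the 6 genes were found among 14106, and Oas3 was not analysed here. APP/PS1 mice (APPswe/PS1ΔE9) carry transgenes for a mouse and human chimera of the amyloid precursor protein with the Swedish mutations and for mutant human presenilin 1, and form amyloid-β plaques. Control animals were wild type (WT) females of the same C3H/BL6 background and age. The promoter of the transgenes and the number of mice per library are not given in the sources used here. BECs were CD31+CD45- cells enriched from the cortex with beads, so a difference in RNA per cell and a difference in the cells recovered cannot be told apart in these bulk libraries.

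OAS proteins are sensors of double-stranded RNA (dsRNA), the hallmark of many viral infections. Once bound to dsRNA, the active enzymes join ATP into short oligoadenylates, which act as a messenger that leads to the cutting of viral and cellular RNA. Their genes are among the classical targets of interferon, whose receptor signals through ISGF3, a complex of transcription factors that includes STAT2 and IRF9. ADAR acts on the same ligand in another way, since it deaminates adenosines in dsRNA and thereby keeps the cell's own RNA from being read as foreign. Brain endothelium faces both blood and brain tissue and expresses the type I interferon receptor.

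Oas1a, Oas2 and Oas3 lie in 1 cluster on chromosome 5 together with the other Oas1 genes, Oasl1 and Oasl2 lie side by side elsewhere on chromosome 5, and Adar lies on chromosome 3. Promoter windows of RefSeq (GRCm38.p6), each from 250 bases before to 50 bases after a start site, were held for 5 of the 6 genes, with no window for Oas2. They were searched on both strands for GAAA followed, after any 2 bases, by another GAAA, which is the core of the interferon-stimulated response element that ISGF3 binds. A match was found in 3.99% of 27025 genes with a window. Among the tested members only the window of Oas1a held it, as 2 overlapping matches that span 16 bases and begin 20 bases before the start site. The window of Oas3, the member without values, held 1 match, GAAAACGAAA, 75 bases before its start site. The 16 bases of Oas1a, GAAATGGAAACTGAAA, stood 18 bases before the start of Oas1g, and they were found in the opposite orientation in the window of Oas1c. The match in the window of Oas1c begins 114 bases before the start of Oas1c. It lies between the starts of Oas1c (120812514, minus strand) and Oas1b (120812635, plus strand). It is nearer to the start of Oas1b, and on the strand of Oas1b it reads as in Oas1a. No window was held for Oas1b. Oasl1, Oasl2 and Adar had no match in their windows, which says only that these letters were not found there. With the shorter GAAANNGAA, which 9.76% of genes held, the third of the windows of Adar had 2 matches, of which 1 begins 33 bases past the start site. The windows below are shown because they set the tested member with the longer motif beside its tested relatives, and because Adar is known to be transcribed from separate constitutive and interferon-inducible promoters. They are given 5′ to 3′, with capitals for the longer motif in Oas1a and for GAAANNGAA in Adar.
Oas1a (chr5:120907476-120907775, minus strand): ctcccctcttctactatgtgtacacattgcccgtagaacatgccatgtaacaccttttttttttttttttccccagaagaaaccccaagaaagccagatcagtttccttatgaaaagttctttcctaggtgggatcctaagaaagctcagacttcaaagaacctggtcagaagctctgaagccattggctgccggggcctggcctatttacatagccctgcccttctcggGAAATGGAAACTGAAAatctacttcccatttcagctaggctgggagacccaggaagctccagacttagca
Oasl1 (chr5:114922990-114923289, plus strand): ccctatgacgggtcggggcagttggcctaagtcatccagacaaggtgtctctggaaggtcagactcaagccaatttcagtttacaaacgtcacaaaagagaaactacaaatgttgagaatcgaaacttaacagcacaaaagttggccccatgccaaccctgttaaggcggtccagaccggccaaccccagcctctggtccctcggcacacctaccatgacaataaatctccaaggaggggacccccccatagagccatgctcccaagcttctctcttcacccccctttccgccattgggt
Oasl2 (chr5:114896684-114896983, plus strand): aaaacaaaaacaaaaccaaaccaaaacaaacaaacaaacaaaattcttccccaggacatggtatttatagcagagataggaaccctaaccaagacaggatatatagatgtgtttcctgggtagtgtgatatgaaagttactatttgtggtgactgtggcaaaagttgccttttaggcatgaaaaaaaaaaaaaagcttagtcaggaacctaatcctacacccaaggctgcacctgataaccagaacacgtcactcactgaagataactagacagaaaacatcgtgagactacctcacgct
Adar (chr3:89730468-89730767, plus strand): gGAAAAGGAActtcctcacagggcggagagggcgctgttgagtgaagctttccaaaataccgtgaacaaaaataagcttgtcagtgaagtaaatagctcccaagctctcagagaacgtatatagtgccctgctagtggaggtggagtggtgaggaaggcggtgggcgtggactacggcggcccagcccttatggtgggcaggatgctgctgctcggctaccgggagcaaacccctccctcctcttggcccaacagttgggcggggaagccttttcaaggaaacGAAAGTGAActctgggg

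The identity of the cells was checked with marker genes before the comparison, which does not check the genotype of a library. All 12 endothelial marker genes fixed for this purpose were measured, with a mean level of 10.92 log2 CPM, and their summed level was 14.91 to 15.02 in control and 14.87 to 14.98 in APP/PS1 libraries. Of 13 microglia and macrophage markers 9 had a row, and their summed level was 5.84 to 6.09 in control and 5.74 to 6.0 in APP/PS1 libraries. The microglial genes Cx3cr1 (0.52 log2 CPM in control BECs and 0.54 in APP/PS1 BECs) and P2ry12 (−0.21 and −0.54) were near the low end of the table. Libraries held 22371766 to 126686149 adjusted counts, with the lowest total in replicate 1 of each group. The deposited values had been corrected so that the libraries of a replicate pair share nearly the same mean as every other pair. For the members, the SD of the 5 pair means was at most 0.00685 log2 units. The 10 values of a gene therefore carry 5 independent differences, and the SD within a group does not show how far unrelated libraries would scatter.

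Adar was the member with the highest level per length of annotated exon and Oasl1 the one with the lowest. On the scale of log2 CPM per kb of exon, averaged over 10 libraries, Adar was at 4.22, Oasl2 at 3.88, Oas2 at 3.36, Oas1a at 3.03 and Oasl1 at 1.62. Each of these genes was above the next in all 10 libraries. The smallest of these steps in level, 0.33 between Oas2 and Oas1a, ranged from 0.17 to 0.51 across libraries. The place of Oas1a in this order is uncertain, since 57.6% of the 50-base words in its transcripts also occur in transcripts of Oas1g. Without the scaling by length, Adar exceeded 90.5% of all genes in log2 CPM and Oasl1 exceeded 33.4%. Every value of Oasl1 rested on at least 166 adjusted counts, and every value of the other members on at least 331.

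All 5 measured members had a positive mean log2 fold change in APP/PS1 BECs, but none passed the test. Their median log2 fold change was 0.16, compared with −0.00377 for all genes, of which 48.2% were positive. Genotype was tested with limma on all 14106 genes with the replicate pair as a block, and the adjusted p values of the members (Benjamini-Hochberg, all genes) lay between 0.594 and 0.905. The same test called 0.0% of all genes at an adjusted p under 0.05, and 8.03% (1133 genes) had an unadjusted p under 0.05. Without the block 4.59% of all genes were called and again 0 members, with adjusted p values from 0.0507 (Oasl2) to 0.654 (Oas2). Two-sided exact sign-flip tests over 5 pairs cannot give a p below 0.0625. A total of 22 of 25 differences between the libraries of a pair were positive. The members are not independent of each other, so this count is a description only.

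Among the catalytic OAS genes, Oas1a encodes the synthetase with a single OAS unit. It is on the minus strand of chromosome 5 from 120896256 to 120907521 and was measured at 3.83, 3.74, 3.95, 3.85 and 3.93 log2 CPM in control replicates 1 to 5. In APP/PS1 replicates 1 to 5 the values were 4.07, 4.14, 3.95, 4.05 and 3.97. The groups did not overlap, but in replicate 3 the libraries differed by only 0.01. The mean was 3.86 ± 0.08 in control BECs and 4.04 ± 0.08 in APP/PS1 BECs (SD over 5 libraries), which is 13% or 0.18 log2 units higher (standard error 0.0703, 95% interval 0.00 to 0.35, adjusted p = 0.617 from limma, unadjusted p = 0.047). In the whole table, 2.99% of genes were higher in all 5 pairs and 2.91% had all 5 APP/PS1 libraries above all 5 control libraries. Since pair means were set equal, these are close to a single criterion. Oas1a and its neighbour Oas1g are near-identical in part: 57.6% of the distinct 50-base words in the transcripts of Oas1a also occur in transcripts of Oas1g. Oas1g had no row that was used here, and the values of Oas1a are uncertain to the extent that reads could not be assigned between both genes.

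Oas2, which carries tandem OAS units, varied most between pairs. It lies on the minus strand of chromosome 5 from 120730333 to 120749853 and had 5.28, 5.49, 5.61, 5.36 and 5.64 log2 CPM in control replicates 1 to 5. The APP/PS1 values were 5.73, 5.55, 5.43, 5.69 and 5.39, so that the groups overlapped and the APP/PS1 library was lower than its control in replicates 3 and 5. From a mean of 5.48 ± 0.16 in control BECs and 5.56 ± 0.15 in APP/PS1 BECs (SD over 5 libraries), limma gave a log2 fold change of 0.08 with a standard error of 0.121 and an adjusted p = 0.905, with differences from −0.25 in replicate 5 to 0.45 in replicate 1. The 95% interval ran from −0.22 to 0.38. Without replicate 1 the log2 fold change of Oas2 was −0.01, so its direction rested on that pair. None of the 50-base words of Oas2 transcripts was found in transcripts of another gene.

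The OAS-like genes Oasl1 and Oasl2 encode proteins with an OAS domain followed by ubiquitin-like domains. Mouse OASL2 keeps synthetase activity, whereas OASL1 lacks it and is known as an inhibitor of the translation of Irf7 mRNA. Oasl2, on the plus strand of chromosome 5 from 114896936 to 114912234, had 6.40, 6.41, 6.53, 6.5 and 6.5 log2 CPM in control replicates 1 to 5. It had 6.70, 6.68, 6.56, 6.60 and 6.60 in the APP/PS1 replicates, and the groups did not overlap, as for 2.91% of all genes in this direction. Replicates 1 and 2 differed by 0.30 and 0.28 and the other pairs by 0.03 to 0.10. The means were 6.47 ± 0.06 and 6.63 ± 0.06 (SD over 5 libraries), so Oasl2 was 11.7% or 0.16 log2 units higher in APP/PS1 BECs (standard error 0.0591, 95% interval 0.01 to 0.31, adjusted p = 0.594 from limma, unadjusted p = 0.0366), the smallest p among the members.
Oasl1 lies beside it on the plus strand from 114923240 to 114937915. Its values were 2.84, 2.82, 3.07, 2.82 and 2.96 log2 CPM in control replicates 1 to 5 and 3.17, 3.18, 2.92, 3.19 and 3.05 in APP/PS1 replicates. It was higher in 4 of 5 APP/PS1 libraries than in their controls and lower in replicate 3, by 0.15 log2 units, which made the groups overlap. The means were 2.91 ± 0.11 and 3.10 ± 0.12 (SD over 5 libraries), and the difference of 0.20 log2 units or 14.6% (standard error 0.0929, adjusted p = 0.702 from limma) was the highest of the members, with a 95% interval from −0.03 to 0.43. Without replicate 3 it was 0.28 (adjusted p = 0.929 from limma). Irf7, whose mRNA is the known target of OASL1, had differences of 0.38, 0.11, −0.03, 0.43 and 0.50 in replicates 1 to 5, and a log2 fold change of 0.28 (adjusted p = 0.571 from limma).

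Adar had the smallest spread between pairs. The gene is on the plus strand of chromosome 3 from 89715022 to 89753446 and was measured at 7.16, 7.16, 7.23, 7.23 and 7.16 log2 CPM in control replicates 1 to 5. The APP/PS1 values were 7.31, 7.31, 7.25, 7.24 and 7.31, all above the control libraries, as for 2.91% of all genes. In replicates 1, 2 and 5 the difference was 0.15 in each, and in replicates 3 and 4 it was 0.02 and 0.01. The means were 7.19 ± 0.04 and 7.28 ± 0.04 (SD over 5 libraries), a difference of 0.10 log2 units or 6.93% (standard error 0.0474, 95% interval −0.02 to 0.21, adjusted p = 0.719 from limma). Counts were made per gene, so the interferon-inducible and the constitutive form of ADAR were not separated. Adar overlaps Chrnb2, a gene of a nicotinic acetylcholine receptor subunit on the other strand, over 7252 bases. For 14.4% of the 50-base words of Adar transcripts, the reverse complement occurs in transcripts of Chrnb2. Chrnb2 averaged 2.88 log2 CPM in control BECs and 2.95 in APP/PS1 BECs, with a log2 fold change of 0.07 (adjusted p = 0.877 from limma).

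**Figure D1:**
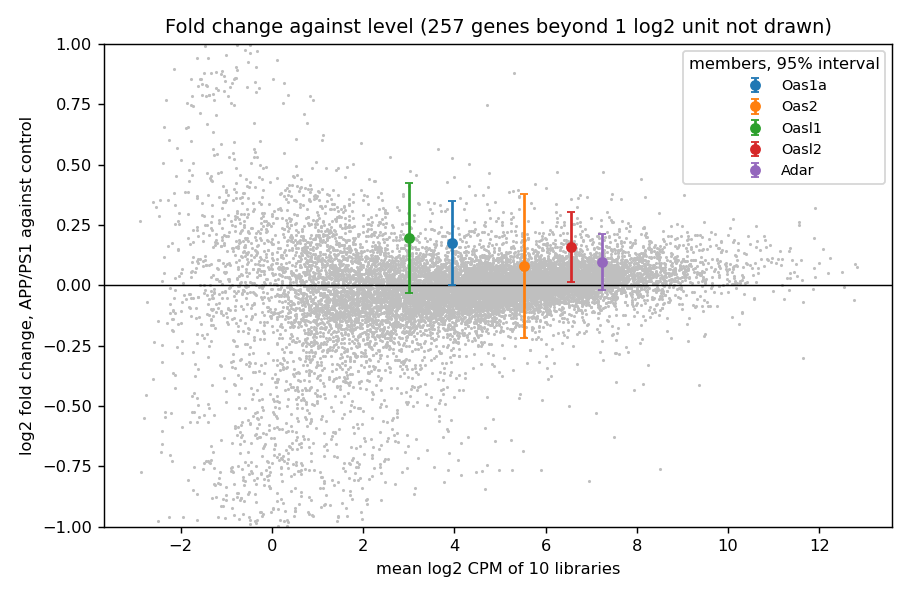
Log2 fold change between APP/PS1 and control BECs against mean log2 CPM for all genes (grey; 257 genes beyond 1 log2 unit in either direction are not drawn), with the 5 members in colour and their 95% limma intervals as bars. The members lie between 0.08 and 0.20 above zero, and the intervals of Oas2, Oasl1 and Adar include zero.

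The spread between pairs set how large a difference the intervals allow. The upper ends of the 95% intervals corresponded to 1.16-fold for Adar, 1.24-fold for Oasl2, 1.27-fold for Oas1a, 1.30-fold for Oas2 and 1.34-fold for Oasl1. Among all genes, the log2 fold changes of the members exceeded those of 81.8% (Oas2) to 94.3% (Oasl1). Of the 5 members, 2 had an unadjusted p under 0.05 with a positive sign, which 2.13% of all genes had. Of the same 5, 3 were higher in all 5 pairs, which 2.99% of all genes were. In 10 pairwise comparisons of the members, the difference between their log2 fold changes took either sign across the pairs. The smallest exact sign-flip p was 0.1875 (adjusted p = 0.833 over the 10), for Oasl2 minus Adar, where the mean difference was 0.06 and ranged from −0.06 to 0.15. As 5 pairs cannot give a p below 0.0625 in this test, it could not have called any difference between members.

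The differences varied with the replicate pair. In replicate 1 all 5 members were higher in the APP/PS1 library, with a median difference of 0.30 log2 units, as in replicate 2 with 0.28 and in replicate 4 with 0.20. In replicate 5 the median was 0.09 and 4 of 5 were higher. In replicate 3 the median was 0.01, and the differences ran from −0.19 to 0.03. Replicate 3 also had more genes at 0 adjusted counts than the other pairs, 185 in the control and 179 in the APP/PS1 library against 30 or fewer elsewhere. Without replicate 3 the median log2 fold change of the members was 0.19, and without replicate 2 it was 0.12.

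**Figure D2:**
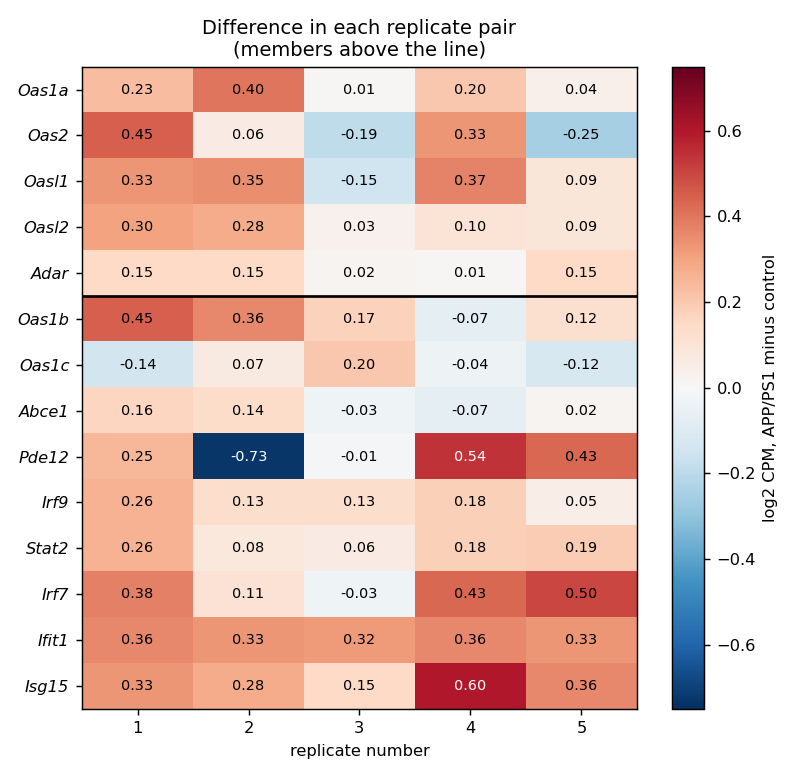
Difference in log2 CPM (APP/PS1 minus control) in each of the 5 replicate pairs for the members, above the line, and for other genes of the OAS pathway, of ISGF3 and of the interferon response, below it. Red is higher and blue is lower in APP/PS1 BECs. The differences of the members in replicate 3 run from −0.19 to 0.03.

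Other genes of the OAS pathway gave a mixed picture. Of 10 genes listed, 4 had a row, and 3 had a positive and 1 a negative log2 fold change. None of them had an unadjusted p under 0.05, which 8.03% of all genes had. Oas1b, the flavivirus resistance gene of mice, was measured at 3.69 ± 0.10 log2 CPM in control BECs and 3.89 ± 0.10 in APP/PS1 BECs (SD over 5 libraries), which limma put at 0.21 log2 units (adjusted p = 0.63). Between pairs it ranged from 0.45 in replicate 1 to −0.07 in replicate 4. GENCODE lists it as a polymorphic pseudogene. In the window of Oas1c, in the same cluster, the 16 bases of Oas1a stand in the opposite orientation. They lie nearer to the start of Oas1b than to that of Oas1c. Oas1c averaged 2.17 in control BECs and 2.16 in APP/PS1 BECs (log2 fold change −0.01, adjusted p = 0.988 from limma). Abce1, which encodes an ATPase of ribosome recycling, had a log2 fold change of 0.04 (adjusted p = 0.888). Pde12, a phosphodiesterase that degrades the oligoadenylates, had 0.09 (adjusted p = 0.93), with differences from −0.73 to 0.54 between pairs. Oas1d, Oas1e, Oas1f, Oas1g and Oas1h were not analysed here.

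Genes that sense, bind or edit dsRNA besides the members were measured for 19 of 22, and 13 of these had a positive and 6 a negative log2 fold change, with a median of 0.05. In this list 0 genes had an unadjusted p under 0.05, which 8.03% of all genes had. Ifih1, the gene of the dsRNA sensor MDA5, was higher in all 5 pairs, by 0.06 to 0.21, as were 2.99% of all genes. Its log2 fold change of 0.10 equalled that of Adar (adjusted p = 0.673 from limma). Ripk3, a kinase of necroptosis, had 0.16 (adjusted p = 0.73) and Eif2ak2, the gene of the dsRNA-activated kinase PKR, 0.11 (adjusted p = 0.766). Stau2, a dsRNA-binding transport protein, had −0.12 (adjusted p = 0.763). Adarb1, the relative of Adar with editing activity, had 0.05 (adjusted p = 0.918) and differences of either sign.
The cGAS and STING pathway was included because cGAS shares its fold with OAS proteins but binds DNA. Of its 6 genes 4 had a row, of which 2 were positive and 2 negative, with a median log2 fold change of −0.01. Cgas had −0.04 (adjusted p = 0.957), Tmem173, the gene of STING, −0.09 (adjusted p = 0.948), Tbk1 0.02 (adjusted p = 0.943) and Samhd1 0.02 (adjusted p = 0.965).

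The pathway from the interferon receptor to ISGF3, which drives transcription of OAS genes, had 12 of 13 genes with a positive log2 fold change and a median of 0.09. An unadjusted p under 0.05 was found for 4 of them, all positive, compared with 2.13% of all genes, and 0 had an adjusted p under 0.05. Of the ISGF3 subunits, Irf9 averaged 6.83 ± 0.04 log2 CPM in control BECs and 6.98 ± 0.04 in APP/PS1 BECs (SD over 5 libraries), 0.15 log2 units higher (adjusted p = 0.569 from limma). Stat2 also had 0.15 (adjusted p = 0.569), and both were higher in all 5 pairs, as were 2.99% of all genes. The receptor genes Ifnar1 and Ifnar2 had 0.05 (adjusted p = 0.898) and 0.09 (adjusted p = 0.795), and the kinase genes Jak1 and Tyk2 had 0.06 (adjusted p = 0.882) and 0.05 (adjusted p = 0.868). The negative regulators Usp18, with 0.16 (adjusted p = 0.569), and Socs1, with 0.30 (adjusted p = 0.632), were positive and Ptpn2 had 0.00 (adjusted p = 0.997). Among the regulatory factors, Irf1 had 0.17 (adjusted p = 0.726) and Irf3 −0.03 (adjusted p = 0.902).
For comparison, 13 of 14 reference genes of the interferon response were positive, with a median of 0.21. Of these 10 were higher in all 5 pairs, compared with 2.99% of all genes, and 0 had an adjusted p under 0.05 (lowest adjusted p = 0.238 from limma). Their summed level differed by 0.24, 0.06, −0.06, 0.27 and 0.12 log2 units in replicates 1 to 5, so replicate 3 was the lowest pair here as for the mean of the Oas and Oasl members (−0.08). Single genes of the list differed in this. The differences of Ifit1, which encodes an RNA-binding antiviral protein, were 0.36, 0.33, 0.32, 0.36 and 0.33 in these pairs, whereas in replicate 3 Ifitm3, a membrane protein that blocks virus entry, was at −0.52 and Bst2, which tethers virus particles, at −0.24. Whether the members differ from these reference genes was not tested. The list holds genes, such as Ifit1 and Ifit3b, that the paper names as interferon signature genes from these same libraries. Its counts are therefore a description only.

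Genes whose differences over the 5 pairs lay closest to the mean of Oas1a, Oas2, Oasl1 and Oasl2 were sought among 10868 genes with a mean above 2 log2 CPM. That mean was 0.33, 0.27, −0.08, 0.25 and −0.01 in replicates 1 to 5. The nearest 8 genes, by root mean square distance over 5 pairs, were Cdca4 (0.0879), Plekhh3 (0.0939), Otud3 (0.0959), Ruvbl2 (0.0976), Irgm2 (0.0983), Tbx1 (0.0985), Siah1a (0.0995) and Naa25 (0.101), where the median gene was at 0.269. Their log2 fold changes were between 0.08 and 0.19. The members themselves lay at 0.0842 (Oasl1), 0.0853 (Oas1a), 0.0952 (Oasl2) and 0.166 (Oas2) from their own mean, of which they are part. Irgm2, a GTPase gene of the interferon response, had differences of 0.49, 0.15, −0.07, 0.33 and 0.01. The measured reference genes of the interferon response were spread widely in this order. Their ranks among the 10868 genes ran from 64 (Ifi44, distance 0.131) to 9289 (Ifit2, 0.384), with Ifit1 at 3366 (0.237).

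Genes near the members on the chromosomes showed no common shift. Other measured genes with a start within 150 kb of a member's start numbered 16, among them Oas1b and Oas1c of the OAS pathway list. Of the 16, 9 had a positive and 7 a negative log2 fold change, and their median was 0.02. A single one of them had an unadjusted p under 0.05, which 8.03% of all genes had. It was Rph3a, a synaptic vesicle gene near Oas1a, with 0.61 ± 0.56 log2 CPM in control BECs and −1.32 ± 0.61 in APP/PS1 BECs (log2 fold change −1.93, adjusted p = 0.483 from limma).

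Markers of other cells were set beside the members by pair. Mural cell markers were negative for 8 of 8 genes, and their summed level was 9.14 to 9.89 in control and 8.16 to 9.13 in APP/PS1 libraries. The summed differences were −1.73, −0.33, −0.40, −1.34 and −0.01 log2 units in replicates 1 to 5. Oligodendrocyte lineage markers were negative for 9 of 9 measured genes, with sums of 5.99 to 8.04 and 5.47 to 7.10. For astrocyte markers 6 of 7 were negative, with log2 fold changes from −0.46 to −1.65 and a list median of −1.09. Their sums of 7.41 to 7.69 and 7.41 to 7.72 were mostly Gja1, which was at 7.09 and 7.36 log2 CPM. For neuronal markers 3 of 4 were negative with a median of −0.61, and the sums of 6.55 to 6.88 and 6.61 to 6.94 were mostly Stmn2, at 6.65 and 6.67. The microglia and macrophage sum differed by 0.16, 0.06, −0.22, 0.11 and −0.35, which has the sign of the mean Oas and Oasl difference in all 5 pairs. Genes induced by tissue dissociation were positive for 10 of 10, with summed differences of −0.09, −0.10, 0.05, 0.50 and 0.33. The part of any of these in the values of the members was not tested.

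**Figure D3:**
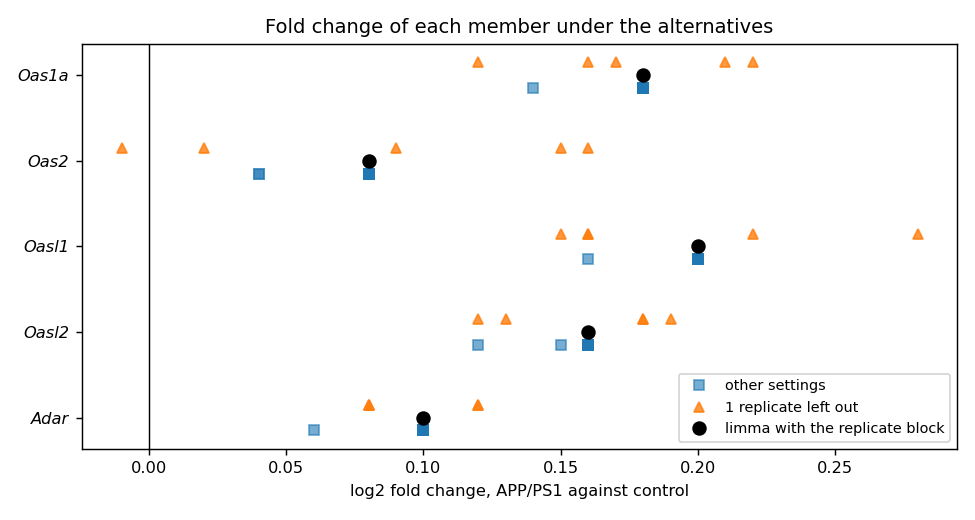
Log2 fold change of each member with the replicate block (black circles), under the other settings (blue squares) and with 1 replicate left out (orange triangles). The values of Oas1a, Oasl1, Oasl2 and Adar stay between 0.06 and 0.28, and those of Oas2 reach from −0.01 to 0.16.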

How the data were processed

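By the paper's methods and the processing notes of the submitters, the authors used STAR for alignment to mm10 and HTSeq for counting per gene, removed weakly expressed genes with edgeR, took log CPM and corrected for batch with ComBat. Versions are not given in the sources used here. The authors deposited log2 CPM of 14106 genes in 10 libraries, as a table and as a file per library, and all 10 files equalled their columns. Each value converted back to a whole adjusted count (100.0% of values within 0.01) with a prior count of 3.0. As batch-corrected counts are not reads, counting error was left out, and p values cover the spread between pairs, which may be technical where libraries of a group do not come from separate mice. ComBat applied to log CPM would not in general leave whole numbers, so the order of the correction is not settled here.

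The fit used R 4.3.3 and limma 3.58.1 (lmFit, eBayes) on the deposited log2 values with genotype and 5 replicate pairs as terms, which leaves 4 residual degrees of freedom, and Benjamini-Hochberg adjustment over 14106 genes with a threshold of 0.05. The fit was tested on simulated data. Replicate numbers were taken as pairs because batches in the labels join same-numbered libraries of both groups for replicates 1, 2 and 3, and the study's multidimensional scaling plot numbers 5 batches. The labels put replicates 4 and 5 in a single batch, which was tried as an alternative with 4 batches. The deviations of paired libraries mirror each other by construction, so a correlation between them was no check of the pairing. The members, lists and tests were chosen with earlier results of these data known. Named genes were the members, the genes of the OAS pathway, ISGF3 and cGAS lists (single genes of these lists that count in their totals are not reported here), up to 4 genes of smallest unadjusted p in the other lists (up to 2 for markers), the 8 genes nearest in pattern, and genes on which a sentence turns. Adarb1, Chrnb2, Cx3cr1, Ifitm3, Bst2, Ifi44, Gja1 and Stmn2 were named for the last reason, after their values were seen. Symbols, positions and exon lengths are from GENCODE M21, promoters from RefSeq. The planned comparison of protein sequences was not made.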

Additional observations from a re-analysis of the deposited data

Results flagged for a closer look

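In 52 groups of 5 libraries, from the members and 21 genes of the OAS pathway, ISGF3 and cGAS lists, 4 libraries stood far from the rest of their group, with a gap above 0.71 of the range. About 1 in 20 groups is found so by chance. None of them belonged to a member. Ifnar1 was lowest in control replicate 1 (8.46 log2 CPM, nearest other library 8.64) and highest in APP/PS1 replicate 1 (8.79, nearest 8.64). Socs1 was highest in control replicate 2 (2.59, nearest 2.30) and lowest in APP/PS1 replicate 2 (2.34, nearest 2.66). With equal pair means, a library that stands apart is mirrored by its partner, so these are 2 events rather than 4.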

How the results depend on the processing

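Over 13 alternatives for each of the 5 members, 65 values in all, 0 had an adjusted p under 0.05 and 64 kept the sign of the log2 fold change. The exception was Oas2, at −0.01 without replicate 1 and up to 0.16 without replicate 5. Without the replicate block, limma called 648 of 14106 genes (193 higher and 455 lower), against 0 with the block, but no member, where the smallest adjusted p was 0.0507 for Oasl2. That model has 8 residual degrees of freedom, although pair means had been set equal. With the 4 batches of the labels 1 gene was called. With 1 replicate left out, between 0 and 5 genes were called, the 5 without replicate 2 and 1 without replicate 5, and the median log2 fold change of the members lay between 0.12 and 0.19. Scaling by library size alone moved the median of all genes to −0.0409 and that of the members to 0.12. A trend in eBayes, median-of-ratios factors, a prior count of 0.5, limma-voom and a filter on a mean of 1 log2 CPM called 0 genes, and the unadjusted p was under 0.05 for 882 to 1161 genes. The looser promoter motif raised the share of genes with a match from 3.99% to 9.76%. These results rest on 5 pairs.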
